A study of Mus musculus with 6 samples.

Results

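The choroid plexus epithelium was followed through 10 of its genes, Ttr, Kl, Folr1, Clic6, Sostdc1, Aqp1, Otx2, Prlr, Slc4a5 and Calml4, taken by symbol from a table of 24411 genes counted in mouse cerebellum. All 10 were found in the table, and all 10 passed the filter on low counts. Their read counts per library were read as a sign of how much choroid plexus RNA each library held, and their levels were compared between genotypes. Whether other cells of the cerebellum added to the reads of some of these genes was not tested.

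RNA was sequenced in bulk from the developing cerebellum of mice at postnatal day 18, in 3 wild-type (WT) libraries and 3 libraries from knockout mice (KO), in which a remote enhancer of Atoh7 had been removed. Atoh7 is a proneural transcription factor gene best known for its part in the birth of retinal ganglion cells, and the deleted element is a regulatory sequence that lies at a distance from it. The design text calls the replicates of each genotype independent, and the labels give no strain, sex, litter or method of dissection. If replicates shared an animal or a preparation, the p-values below measure only the spread between these samples. The tissue entry of every sample reads retina, whereas the design text and the extraction protocol read cerebellum.

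The choroid plexus is a fringe of secretory epithelium over a vascular core that hangs into the brain ventricles, and one such plexus lies in the roof of the fourth ventricle, directly beneath the cerebellum. Its epithelial cells secrete cerebrospinal fluid by moving sodium, chloride, bicarbonate and water from blood to ventricle, and they deliver thyroid hormone, folate and other factors to the brain. How much of this tissue comes away with a cerebellum depends on the dissection, so its transcripts are commonly read as a mark of what was dissected. In bulk RNA, fewer cells of a type and less RNA per cell cannot be told apart.

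The libraries were unequal. Reads assigned to genes ran from 16340132 to 34438262 per library. Rn45s, a precursor of ribosomal RNA, took 63.2% of the gene reads of WT replicate 3 and 1.28% to 3.04% of those of the other 5 libraries, so that WT replicate 3 had 6015125 reads left for all other genes. The share of reads outside annotated genes was 34.3% ± 3.59 in the WT and 17.3% ± 0.291 in the KO group (SD, n = 3 each). It ran from 32.0% to 38.5% in WT and from 17.1% to 17.6% in KO libraries. Multimapping reads ran from 6.97% to 7.85% in WT and from 8.84% to 9.83% in KO libraries. Both shares thus went with genotype, and their part in the differences between genotypes given below was not tested. Xist, which coats an inactivated X chromosome, was counted with 31134 reads in WT replicate 1 and with 10 or fewer in each other library. Levels are given as CPM, counts scaled to 1000000 reads per library after TMM scaling (a trimmed mean of log ratios between libraries), on which 3 reads are worth 0.0723 to 0.465 CPM.

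The 10 genes were present in every library, and none passed the threshold between genotypes (adjusted p under 0.05 by edgeR's quasi-likelihood test). Summed over the 10 genes, the WT libraries held 1248 ± 137 CPM and the KO libraries 1256 ± 152 CPM (SD, n = 3 each), a KO to WT ratio of 1.01. In WT replicates 1 to 3 the sum was 1091, 1334 and 1320 CPM, and in KO replicates 1 to 3 it was 1390, 1090 and 1287 CPM. WT replicate 1 and KO replicate 2 were the low libraries, 1 of each genotype, and the highest library held 1.28 times the lowest. The group ranges overlapped almost entirely. Ttr alone made up 89.6% ± 0.495 of the sum (SD, n = 6), and the other 9 genes summed to 130.1 ± 12.9 CPM in WT libraries and to 130.1 ± 17.1 CPM in KO libraries.

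Ttr encodes transthyretin, the carrier of thyroxine and of retinol-binding protein that choroid plexus cells secrete into cerebrospinal fluid. It lies on chromosome 18, and it ranked 29 by mean CPM among all 24411 genes. It was counted with 33518, 38934 and 7593 reads in WT replicates 1 to 3 and with 48185, 38804 and 47597 reads in KO replicates 1 to 3. Scaled to library size, Ttr stood at 973, 1205 and 1177 CPM in WT and at 1250, 979 and 1147 CPM in KO libraries. The low raw count of WT replicate 3 went with the small size of that library and was not seen after scaling. The low libraries by CPM were WT replicate 1 and KO replicate 2, and the groups overlapped. The KO minus WT log2 fold change of Ttr was 0.0095 (SE 0.109), with a 95% interval of −0.23 to 0.25 and an adjusted p of 0.965 (edgeR quasi-likelihood test, Benjamini-Hochberg adjustment over all tested genes). On a linear scale that interval runs from 0.851 to 1.19 times the WT level.

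**Figure D1:**
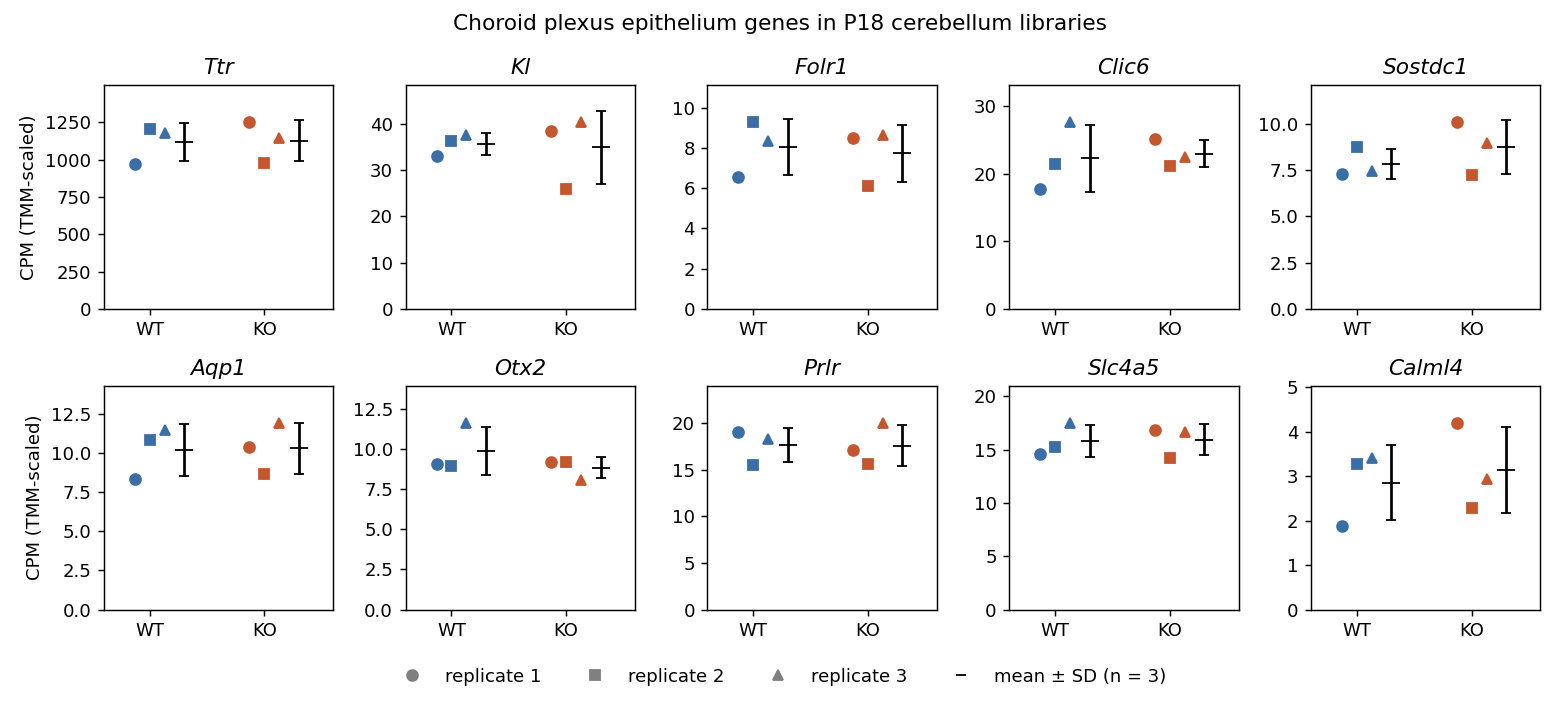
CPM (y axis, TMM-scaled, from 0, a separate scale for each gene) of the 10 choroid plexus epithelium genes in the 3 WT and 3 KO libraries, with symbols for replicates and the mean ± SD of each group. The WT and KO points overlap in all 10 panels, and Ttr stands at 973 to 1250 CPM while Calml4 stands at 1.89 to 4.20 CPM.

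Kl and Folr1 encode proteins by which the epithelium handles circulating factors. Kl (chromosome 5, 150952607 to 150993817, plus strand, GRCm38) encodes klotho, the co-receptor through which FGF23 acts and also a shed protein of cerebrospinal fluid. It was measured at 33.0, 36.4 and 37.5 CPM in WT and at 38.5, 25.9 and 40.3 CPM in KO libraries. The KO libraries held both the highest and the lowest value of Kl, with KO replicate 2 lowest, and the groups overlapped. Its log2 fold change was −0.02 (SE 0.159; 95% interval −0.38 to 0.35; edgeR adjusted p = 0.950). Folr1 (chromosome 7, 101858331 to 101870788, minus strand) encodes folate receptor alpha, which carries folate across this epithelium. It stood at 6.53, 9.28 and 8.37 CPM in WT and at 8.48, 6.11 and 8.65 CPM in KO libraries. Folr1 too was lowest in KO replicate 2 and next lowest in WT replicate 1, and its groups overlapped. Its log2 fold change was −0.04 (SE 0.172; 95% interval −0.43 to 0.34; edgeR adjusted p = 0.886).

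Clic6, Aqp1 and Slc4a5 belong to the machinery of ion and water movement. Clic6 (chromosome 16, 92485736 to 92541243, plus strand) encodes a chloride intracellular channel family protein. It stood at 17.7, 21.5 and 27.6 CPM in WT and at 25.1, 21.2 and 22.5 CPM in KO libraries. Both extremes of Clic6 were WT libraries, replicate 1 lowest and replicate 3 highest, so the KO libraries fell within the WT range. Its log2 fold change was 0.10 (SE 0.138; 95% interval −0.21 to 0.40; edgeR adjusted p = 0.674). Aqp1 (chromosome 6, 55336432 to 55348555, plus strand) encodes aquaporin 1, the water channel of the ventricular face of these cells. It was measured at 8.31, 10.8 and 11.5 CPM in WT and at 10.3, 8.66 and 11.9 CPM in KO libraries. Again WT replicate 1 and KO replicate 2 were lowest and the groups overlapped, with a log2 fold change of 0.05 (SE 0.150; 95% interval −0.28 to 0.39; edgeR adjusted p = 0.837). Slc4a5 (chromosome 6, 83219828 to 83304945, plus strand) encodes a sodium bicarbonate cotransporter of the same face. It was the steadiest of the 10, at 14.6, 15.2 and 17.5 CPM in WT and at 16.8, 14.2 and 16.7 CPM in KO libraries. The highest Slc4a5 library held 1.23 times the lowest, the groups overlapped, and the log2 fold change was 0.04 (SE 0.101; 95% interval −0.19 to 0.26; edgeR adjusted p = 0.826).

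Otx2, Prlr, Sostdc1 and Calml4 are a transcription factor, a receptor, a secreted antagonist and a protein of calmodulin type. Otx2 (chromosome 14, 48657677 to 48673819, minus strand) encodes the homeodomain factor needed for the choroid plexus to form and persist, and its protein is released into cerebrospinal fluid. It was measured at 9.09, 8.91 and 11.6 CPM in WT and at 9.21, 9.21 and 8.10 CPM in KO libraries. WT replicate 3 was high and KO replicate 3 low, and the other 4 libraries of Otx2 lay close together between them. The log2 fold change of Otx2 was −0.11 (SE 0.120; 95% interval −0.37 to 0.16; edgeR adjusted p = 0.570), the most negative of the 10. Prlr (chromosome 15, 10177238 to 10349180, plus strand) encodes the prolactin receptor, through which prolactin from blood is taken up and sensed at the plexus. It was measured at 19.0, 15.5 and 18.3 CPM in WT and at 17.1, 15.6 and 20.0 CPM in KO libraries. Prlr was the 1 gene above its own mean in WT replicate 1, and its groups overlapped. Its log2 fold change was 0.0064 (SE 0.115; 95% interval −0.25 to 0.26; edgeR adjusted p = 0.978).

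Sostdc1 (chromosome 12, 36314139 to 36318452, plus strand) encodes a secreted antagonist of BMP and Wnt signals. It stood at 7.29, 8.76 and 7.44 CPM in WT and at 10.1, 7.22 and 8.97 CPM in KO libraries. KO replicate 1 was highest and KO replicate 2 lowest, with all WT libraries between them. The log2 fold change of Sostdc1 was 0.15 (SE 0.143; 95% interval −0.17 to 0.46), and its edgeR p was the smallest of the 10 at 0.325 (adjusted p = 0.512). Calml4 (chromosome 9, 62858080 to 62875921, plus strand) encodes a calmodulin-like protein of epithelia with microvilli. It was the least abundant, at 1.89, 3.28 and 3.41 CPM in WT and 4.20, 2.30 and 2.94 CPM in KO libraries. The WT replicate 3 value rests on 22 reads, for which counting error alone gives 13.8 to 33.3 reads (exact Poisson interval, 95%; counting error only). The groups of Calml4 overlapped, and its interval was the widest of the 10, with a log2 fold change of 0.22 (SE 0.279; 95% interval −0.41 to 0.84; edgeR adjusted p = 0.634).

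Across the genotypes, then, 0 of the 10 genes passed the threshold, where 16.7% of the 15519 tested genes did. By edgeR none of the 10 had an unadjusted p under 0.05, and by DESeq2 and limma-voom 0 of the 10 passed the threshold and 0 had an unadjusted p under 0.05. The groups overlapped for all 10, while 39.4% of all tested genes had groups that did not overlap (20.5% with KO lower, 18.9% with KO higher). Of the 10 fold changes, 7 were above 0 and 3 below, with a median of 0.02 against −0.0055 over all tested genes. The widths of the intervals show what these libraries could not resolve: a 1.19-fold difference is the upper bound for Ttr, and 1.79-fold for Calml4. With library totals in place of TMM, which leaves the Rn45s reads in the size of WT replicate 3, the median of all tested genes moved to 0.34 and that of the 10 to 0.39, so directions are given on the TMM scale. On library totals Kl, Folr1 and Otx2 lay above 0, as did Enpp2, Igf2, Igfbp2, Atp11a, Slc12a2, Rfx3 and Jak2, which are named below. Without WT replicate 3, the library rich in Rn45s, 0 of the 10 passed the threshold, and 1 of them, Clic6, had an unadjusted p under 0.05 (edgeR quasi-likelihood adjusted p = 0.109).

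**Figure D2:**
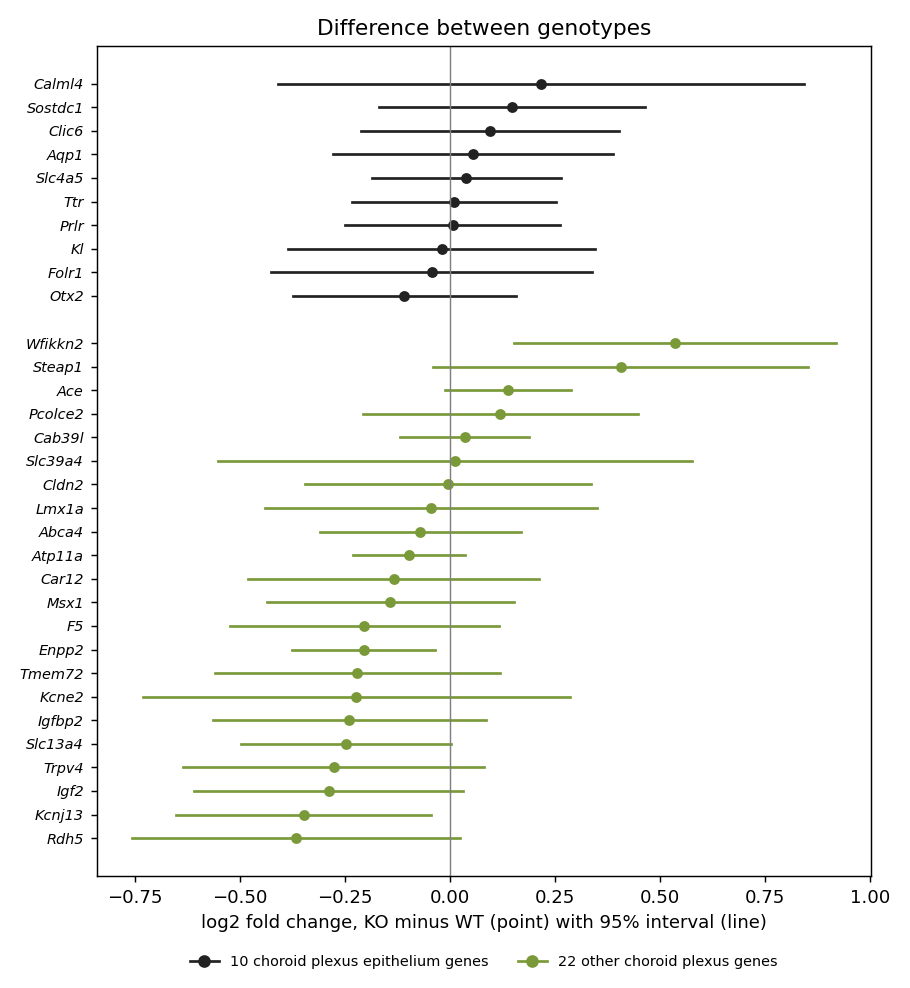
Log2 fold change, KO minus WT, on the x axis for each of the 10 choroid plexus epithelium genes (dark) and 22 other choroid plexus genes (green), with points for the estimate and lines for the 95% interval. The intervals of all 10 genes include 0, with Ttr at 0.0095 and Calml4 at 0.22, and 16 of the 22 other genes lie below 0.

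Most of the 10 genes were high and low in the same libraries, and the low ones were 1 WT and 1 KO library. The log2 CPM of each gene was set against its own mean over the 6 libraries, and these differences were averaged over the 10 genes. The average was −0.20 in WT replicate 1 and −0.21 in KO replicate 2, against 0.04 and 0.14 in the other WT and 0.15 and 0.08 in the other KO libraries. In KO replicate 2 all 10 genes were below their own mean, and in WT replicate 1 all but Prlr were. In WT replicate 3, KO replicate 1 and KO replicate 3 the number above their mean was 9, 8 and 9. The spread of Ttr over the libraries, a coefficient of variation of 10.5%, stood beside the 0.652% that counting error alone gives, and for Kl and Clic6 it was 14.7% beside 3.68% and 15.1% beside 4.47%. Separate samples are bound to vary by more than counting error, so these values describe precision only. For Calml4 the counting error was itself large, at 12.6% of an observed 27.6%. WT replicate 3, with the fewest reads, was among the high libraries, and the part of depth was not tested.

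**Figure D3:**
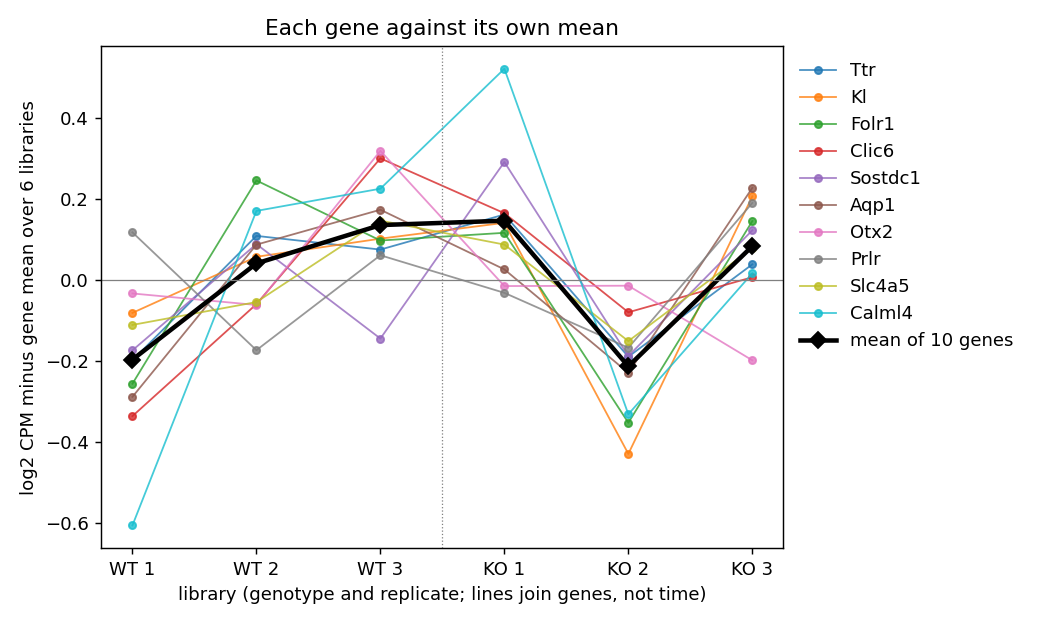
Log2 CPM of each gene minus its mean over the 6 libraries (y axis) by library (x axis), with a thin line for each of the 10 genes and a thick black line for their mean. The mean is lowest in WT replicate 1 (−0.20) and KO replicate 2 (−0.21) and highest in KO replicate 1 (0.15).

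The reads of each gene were also expressed per 1000 Ttr reads of the same library, which needs no library size. Kl was counted 32.0 ± 1.87 times per 1000 Ttr reads in WT and 30.8 ± 4.34 times in KO libraries (SD, n = 3 each here and below). Slc4a5 gave 14.2 ± 1.34 and 14.2 ± 0.635, with a highest library 1.19 times the lowest. Folr1 gave 7.18 ± 0.499 and 6.86 ± 0.656, and Aqp1 gave 9.08 ± 0.615 and 9.17 ± 1.09. Against Ttr, then, the highest library held 1.19 to 1.33 times the lowest for Kl, Slc4a5, Folr1 and Aqp1. For Sostdc1 and Clic6 it held 1.28 and 1.32 times the lowest, for Otx2 1.40 times and for Calml4 1.73 times. Sostdc1 stood at 7.03 ± 0.620 in WT and 7.75 ± 0.355 in KO libraries, and Otx2 at 8.87 ± 1.30 and 7.94 ± 1.28. Clic6 stood at 19.8 ± 3.14 and 20.4 ± 1.05, and Calml4 at 2.52 ± 0.510 and 2.76 ± 0.535. The largest value of Prlr, 19.5 in WT replicate 1, was 1.52 times its smallest, 12.9 in WT replicate 2. The WT and KO ranges of all 9 ratios overlapped.

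**Figure D4:**
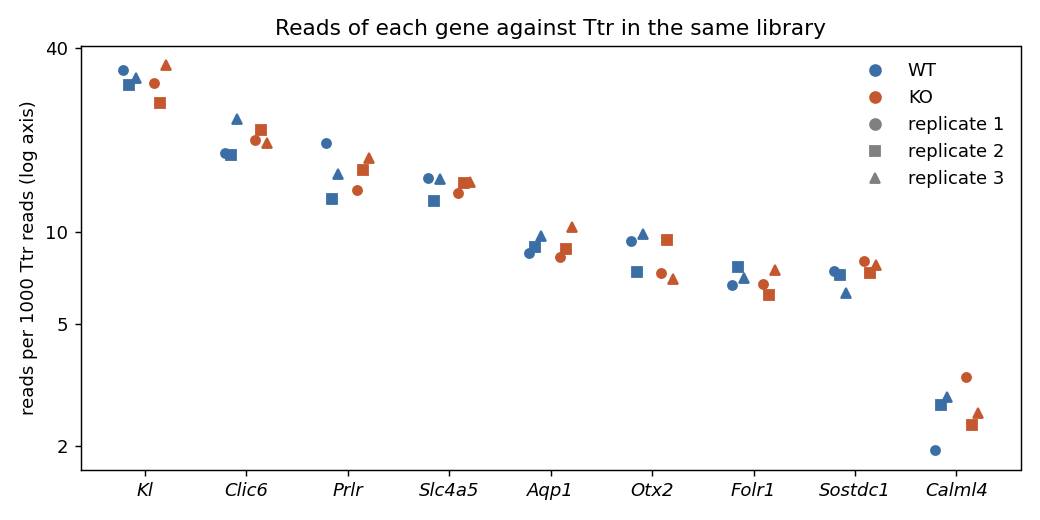
Reads of 9 choroid plexus epithelium genes per 1000 Ttr reads of the same library (y axis, logarithmic), with colours for WT and KO and symbols for replicates. WT and KO points overlap for every gene, and the genes range from 1.94 to 3.36 reads (Calml4) to 26.5 to 35.1 reads (Kl) per 1000 Ttr reads.

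Levels can be set against each other between genes only per length. Per kilobase of merged exons in the GENCODE annotation of GRCm38, Ttr stood at 946 ± 99.2 CPM (SD, n = 6), 164 times Clic6 at 5.77 ± 0.872. Next came Sostdc1 at 4.66, Aqp1 at 3.90, Kl at 3.78, Folr1 at 3.44, Slc4a5 at 2.73, Otx2 at 2.22, Prlr at 1.15 and Calml4 at 0.824 CPM per kilobase. Only 2 steps in this order had ranges that did not overlap over the 6 libraries, Ttr above Clic6 and Otx2 above Prlr. The ranges of the other neighbours overlapped, although Clic6 was above Sostdc1, Folr1 above Slc4a5 and Slc4a5 above Otx2 within each of the 6 libraries. The order below Ttr depends on which exons are counted: with the longest coding transcript of each gene in place of all exons, an alternative chosen after the data were seen, Kl at 6.89 and Folr1 at 6.02 CPM per kilobase came next after Ttr, and Calml4 stood at 3.48.

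Upstream sequence is shown for 3 of the genes, so that what their promoters do and do not share can be seen. The 250 bases before the start were taken from RefSeq (GRCm38.p6), where windows were matched for 6 of the 10 genes, and searched on both strands for TAATCC, a core word bound by OTX-type homeodomains that reads GGATTA on the other strand, and for GTAAACA, a forkhead word that reads TGTTTAC on the other strand. No match of one word overlapped a match of the other. The first occurred in 6.25% of all 32851 windows and in 1 of 11 windows of these genes, at Otx2, and the second in 3.17% of all windows and in 1 of the 11, at Prlr. The windows of Kl (chr5:150952357-150952606, plus strand) and Aqp1 (chr6:55336049-55336298, plus strand) overlap no annotated gene and hold neither word, which says only that these letters are not in these windows. The Prlr window (chr15:10223656-10223905, plus strand) lies in an intron of the gene, before an inner start, and its forkhead match is in capitals, 215 bases before that start. A match is a description of the sequence and not a site of binding.
Kl: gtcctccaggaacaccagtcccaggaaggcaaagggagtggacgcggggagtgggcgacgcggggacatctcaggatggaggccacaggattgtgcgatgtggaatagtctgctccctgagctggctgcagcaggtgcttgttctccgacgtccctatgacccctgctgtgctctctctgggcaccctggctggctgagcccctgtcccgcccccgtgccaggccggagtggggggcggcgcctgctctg
Aqp1: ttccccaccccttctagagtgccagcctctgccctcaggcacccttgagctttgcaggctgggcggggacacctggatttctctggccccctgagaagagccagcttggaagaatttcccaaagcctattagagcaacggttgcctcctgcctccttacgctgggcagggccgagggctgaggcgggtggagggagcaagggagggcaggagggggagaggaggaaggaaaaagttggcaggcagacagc
Prlr: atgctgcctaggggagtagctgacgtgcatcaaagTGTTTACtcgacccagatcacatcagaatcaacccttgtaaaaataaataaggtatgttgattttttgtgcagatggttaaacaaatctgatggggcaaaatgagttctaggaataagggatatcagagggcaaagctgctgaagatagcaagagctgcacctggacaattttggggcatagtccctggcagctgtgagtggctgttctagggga

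A further 22 genes known from this epithelium were read beside the 10. Of these 22, 0 passed the threshold (edgeR; 3 had an unadjusted p under 0.05; DESeq2 called 1, Wfikkn2, and limma-voom 0). By edgeR, Wfikkn2 passed as higher without KO replicate 1, without the low count filter and with unstranded counts, Ace as higher without WT replicate 3, and Kcnj13 as lower with unstranded counts. Their median log2 fold change was −0.14, with 16 below 0, and 5 had KO libraries all below the WT libraries, where 20.5% of all tested genes did. Enpp2, which encodes the secreted enzyme autotaxin and is also strong in oligodendrocytes, was the most abundant, at 973, 1034 and 1053 CPM in WT and 929, 810 and 915 CPM in KO libraries. Its groups did not overlap, and its log2 fold change was −0.21 (SE 0.0770; edgeR adjusted p = 0.0931). Kcnj13, a potassium channel gene, stood at −0.35, and Wfikkn2, a secreted protease inhibitor gene, at 0.53 (SE 0.172; edgeR adjusted p = 0.0595). Igf2, a growth factor gene also expressed by meninges, stood at −0.29, and the others of highest level, Igfbp2, Atp11a, Cab39l and Ace, at −0.24, −0.10, 0.03 and 0.14, none past the threshold. Summed, the 22 stood at 1533 to 1763 CPM in WT and at 1341 to 1492 CPM in KO libraries, without overlap, and that sum is mostly Enpp2 and Igf2. Meningeal and vessel genes, whose values are given below, were lower in KO libraries as well, and their part in the difference was not tested. Igf2 is counted in the meningeal list too, so both sums contain it. It stood at 205, 216 and 304 CPM in WT and at 202, 202 and 185 CPM in KO libraries.

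Genes of the pathways in which the 10 act were read as lists of their known members. Of 12 genes for the ion pumps, carriers, channels and carbonic anhydrases of fluid secretion, 2 rose in KO libraries, 0 fell and 10 did not pass, where 6.43% of all tested genes rose and 10.2% fell. The genes that rose were Atp1b1, a sodium pump subunit (log2 fold change 0.29, SE 0.0730; edgeR adjusted p = 0.0255) and Car2, a carbonic anhydrase (0.24; edgeR adjusted p = 0.0474). Each is also expressed in neurons or glia, and each call was lost when single libraries were left out: Atp1b1 without WT replicate 2 or any 1 KO replicate, and Car2 without WT replicate 1 or 2 or KO replicate 1 or 3. The most abundant of the others stood at −0.13 (Slc12a2, a sodium, potassium and chloride cotransporter gene) and 0.08 (Clcn3, a chloride and proton exchanger gene). Among 11 folate genes beside Folr1, 0 passed by edgeR or DESeq2 (1 in edgeR at an unadjusted p under 0.05). Fpgs passed as lower by limma-voom and by edgeR without WT replicate 3. The intestinal and choroidal folate carrier gene Slc46a1 stood at 0.09.

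The receptors and signals around Kl and Prlr gave 1 call in each of their lists, and 16.7% of all tested genes were called. Of 5 tested genes of the FGF and klotho list, Fgfr3, an FGF receptor gene strong in astrocytes, rose by 0.35 on the log2 scale (edgeR adjusted p = 0.0384), and the call was lost without WT replicate 2 or any 1 KO replicate. Of 9 tested prolactin pathway genes, Jak2, the kinase bound to the receptor, fell by 0.28 (edgeR adjusted p = 0.0229), a call lost without WT replicate 1 or any 1 KO replicate, and Prl itself had 0 reads in every library. Of 14 genes of the BMP and Wnt signals that Sostdc1 antagonises, 0 passed by edgeR, DESeq2 or limma-voom (2 in edgeR at an unadjusted p under 0.05), and Bmp7 passed as higher without WT replicate 3. Thyroid hormone genes, on the path that Ttr serves, gave 3 calls of 9, beside the 16.7% of all tested genes. Dio2, the activating deiodinase, rose by 0.33 (edgeR adjusted p = 0.0349) and Thra, a thyroid hormone receptor, by 0.21 (edgeR adjusted p = 0.0333), while Slco1c1, a thyroxine transporter of brain vessels and choroid plexus, fell by 0.41 (SE 0.0748; edgeR adjusted p = 0.00581). The call of Slco1c1 held with each library left out in turn, that of Dio2 was lost without WT replicate 2 or 3 or KO replicate 1 or 3, and that of Thra without any 1 library but WT replicate 3.

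Other tissue that borders the ventricle was read in the same libraries. Of 14 tested genes of the ciliated ependyma, the lining that adjoins the plexus, 1 fell and 13 did not pass, where 10.2% of all tested genes fell and 6.43% rose. It was Dnah11, a ciliary dynein gene, at 25.4 ± 5.90 CPM in WT and 12.3 ± 1.83 CPM in KO libraries (SD, n = 3 each), with a log2 fold change of −0.99 (SE 0.160; edgeR adjusted p = 0.00416) and the call held with each library left out in turn. The ependymal genes Foxj1 and Rfx3, master regulators of motile cilia, stood at 0.11 and −0.11. Of 14 meningeal fibroblast genes 7 fell and 0 rose (3 fell without any 1 KO replicate, 4 without WT replicate 2). Their summed CPM, Igf2 included, ran from 535 to 784 in WT and from 435 to 459 in KO libraries. Of 12 vessel genes 8 fell and 1 rose, with sums of 382 to 406 CPM in WT and 316 to 331 CPM in KO libraries. The ependymal genes summed to 128 to 144 CPM in WT and to 109.7 to 121 CPM in KO libraries. The ependymal sums of the groups lay apart through Dnah11: without it, an alternative chosen after the data were seen, they ran from 106 to 112 CPM in WT and from 99.5 to 108 CPM in KO libraries and overlapped. The meningeal and vessel sums did not overlap between groups, nor did those of the 22 other choroid plexus genes. Those of the 10 choroid plexus epithelium genes did overlap.

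**Figure D5:**
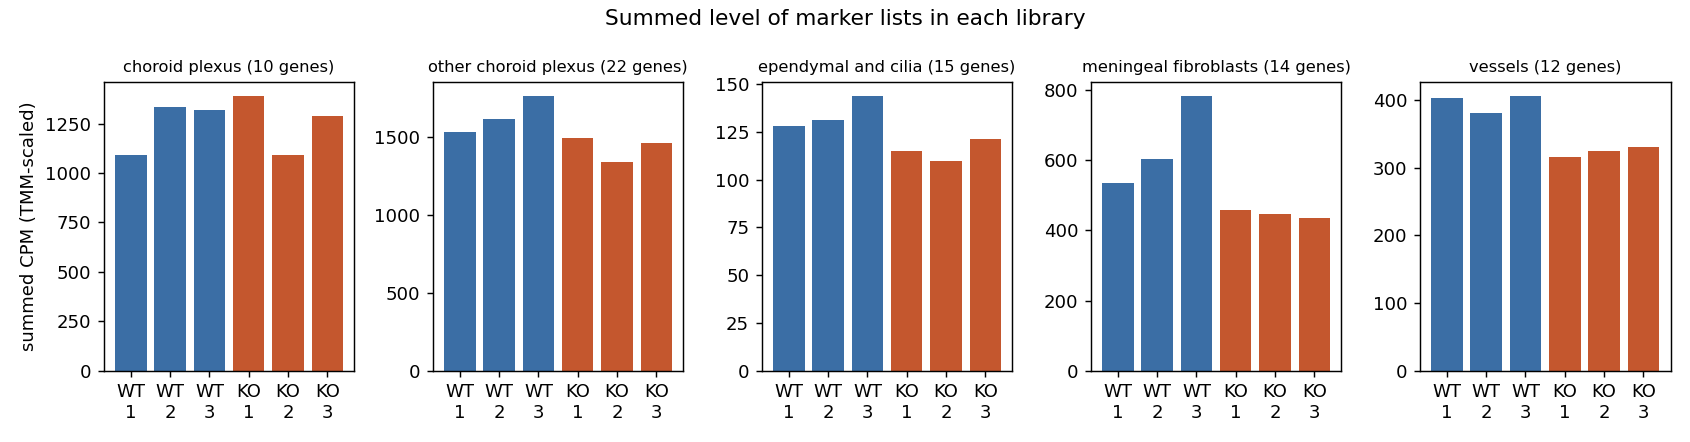
Summed CPM (y axis, from 0, a separate scale for each panel) of marker lists in the 3 WT and 3 KO libraries, 1 bar for each library. The sum of the 10 choroid plexus epithelium genes lies at 1090 to 1390 CPM with WT and KO interleaved. The sum of the 22 other choroid plexus genes is higher in all 3 WT than in all 3 KO libraries. The meningeal and vessel sums are too, and so is the ependymal sum, but only with Dnah11 included.

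Several of the 10 genes, Ttr and Otx2 first, are also expressed by retina or retinal pigment epithelium, and the tissue entry names retina. Among markers of those tissues, Crx, the photoreceptor homeobox gene, had 0 reads in all 6 libraries, Rgr had 1, Tyr had 7 and Rpe65 had 33. Others were counted in larger number: Mitf, a factor gene of pigment cells, at 20.0 to 22.8 CPM, Rlbp1, a retinoid-binding protein gene that glia also express, at 4.95 to 8.20 CPM, and Pmel, Lrat and Best1 with 205, 172 and 154 reads in all. Rcvrn, a photoreceptor calcium sensor gene with 47 reads in all, was the 1 of 6 tested retinal genes that passed. Its log2 fold change was −2.42 (edgeR adjusted p = 0.0145), and the call was lost by DESeq2 and without KO replicate 2 or 3. Genes of the cerebellum were abundant, with Gabra6, a granule cell receptor gene, at 155 to 338 CPM.

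The genes whose course over the 6 libraries was most like the mean course of the 10 were sought among 13210 other tested genes. These had a mean of at least 1 CPM, and unnamed gene models were passed over. Likeness was the root mean square difference between log2 profiles over the 6 libraries, each profile set to a mean of 0. The 8 nearest were Stil at 0.0360, Rab13 at 0.0370, Prex2 at 0.0399, Htr5b at 0.0418, Rab11fip1 at 0.0436, Pla2g7 at 0.0437, Arhgef33 at 0.0497 and Cryab at 0.0519, none of them past the threshold between genotypes. Set against the mean of the other 9, Ttr was nearest at 0.0478 and Slc4a5 next at 0.0703, followed by Aqp1 at 0.0989, Folr1 at 0.121, Kl at 0.126, Clic6 at 0.129 and Sostdc1 at 0.147. Prlr at 0.201, Otx2 at 0.211 and Calml4 at 0.269 were farthest. The median of the 10, each measured to the mean of the other 9, was 0.127. Measured to the mean of the 10 instead, the median was 0.177 for 21 of the other choroid plexus genes and 0.210 for the 13210 genes. Other lists had medians as near as those 21, with 0.174 for the BMP and Wnt genes and 0.162 for 3 retinal genes. These are descriptions over libraries that all genes share.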

How the data were processed

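Each deposited file holds the raw counts of 1 library per gene, without normalization. The submitters' processing notes name Trimmomatic, STAR and the mm10 genome; the tool versions, the annotation and the strandedness of the kit were not given in the sources used here. Counts were read from the strand column that held most reads. The 4 summary lines entered neither library sizes nor tests. Unmapped reads were 10.1% of WT and 6.87% of KO reads, multimapping reads 7.39% and 9.28%, reads outside genes 34.3% and 17.3%, and reads in more than 1 gene at most 0.458% of a library.

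Groups came from the sample titles; the file of KO replicate 3 bears a prefix unlike that of its group, and its title was followed. Genes with low counts were removed with filterByExpr, leaving 15519 and removing 8892. The genotypes were compared with the quasi-likelihood test of edgeR (4.0.16, R 4.3.3; TMM, robust fit), with p-values adjusted by Benjamini-Hochberg over the tested genes and a threshold of 0.05. Standard errors are approximate. Log2 CPM used a prior count of 2. The test was tried on simulated data. DESeq2 1.42.0 and limma 3.58.1 served as alternatives, with other scalings, filters, the unstranded column, a replicate block and each library left out. Intervals cover counting error or the fit at 95%.

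The 10 genes and the lists were chosen with earlier results of these data known. Named besides the 10 were the called genes of each list (at most 6, by p), the most abundant choroid, transport and ependymal genes, and the 8 nearest profiles; Kcnj13, Wfikkn2, Slc46a1, Prl, Fpgs, Bmp7 and the read counts of retinal genes were added after their values were seen. Meningeal and vessel lists are given by counts only. Some genes of the lists are not reported here, nor counted in them. Positions and lengths are from GENCODE M21 on GRCm38, matched by symbol. In that annotation Folr1, Otx2 and Calml4 overlap genes on the opposite strand, and Clic6, Otx2 and Prlr overlap others on the same strand; reads in more than 1 gene are set apart in a summary line.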

Additional observations from a re-analysis of the deposited data

Results flagged for a closer look

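Reads on the strand opposite the counted one are in a column that the comparisons do not use. The 10 choroid plexus epithelium genes had 477 such reads beside 239372 counted ones, 0.199% of both (exact binomial 95% interval 0.181% to 0.218%), which is below the 1.77% over all genes. Ttr gave 394 of the 477 and 214631 of the 239372, a share of 0.183%, so the pooled share mainly describes Ttr. Among the others the share was lowest for Prlr, at 0.0886%, and stood at 0.610% for Sostdc1 and 0.561% for Slc4a5. For Calml4, which overlaps Gm10653 on the other strand, the share was 2.91% (17 reads, exact binomial 95% interval 1.70% to 4.61%).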

How the results depend on the processing

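With 14 alternatives, 0 of the 10 choroid plexus epithelium genes passed the threshold in any. Over all genes, 2585 passed (998 higher, 1587 lower), 10 with library totals only (5 higher, 5 lower), 1073 with the replicate block, and 1041 to 3719 with 1 library left out (1331 when WT replicate 2 was dropped, and 1289, 1130 and 1041 when KO replicate 1, 2 or 3 was). The replicate numbers did not pair the samples: same-numbered deviations correlated at −0.18, −0.14 and −0.0997, and 0 of 6 samples correlated best with their own number. The median log2 fold change of the 10 was 0.02, and −0.08 to 0.13 with 1 library left out. With library totals only it was 0.39, where the median of all genes moved to 0.34. Without Rn45s the 10 summed to 1499.8 CPM in WT libraries and to 1510.3 CPM in KO libraries, and with library totals only to 1502 CPM in KO libraries. With 1 library left out the sum was 1161 to 1457 CPM in WT and 1151 to 1513 CPM in KO libraries, highest without WT replicate 3, which changes the scale for every library. With library totals only, values below 0 turned positive for Kl (0.34), Folr1 (0.30), Otx2 (0.26), Enpp2 (0.15), Igf2 (0.16), Atp11a (0.23), Igfbp2 (0.17), Slc12a2 (0.21), Rfx3 (0.23), Jak2 (0.070), Dcn (0.027), Pla2g7 (0.34), Arhgef33 (0.38) and Cryab (0.36). The block turned Prlr (−0.0138), Rab13 (−0.0172) and Rab11fip1 (−0.0141) negative, and unstranded counts gave Cryab 0.0014. Left-out libraries turned the sign of Ttr (−0.081 to 0.10), Kl (−0.14 to 0.16), Folr1 (−0.21 to 0.12), Clic6 (−0.051 to 0.23), Aqp1 (−0.097 to 0.16), Prlr (−0.096 to 0.092), Slc4a5 (−0.00995 to 0.11), Calml4 (−0.078 to 0.46), Cab39l (−0.0043 to 0.075), Rab13 (−0.077 to 0.12), Prex2 (−0.020 to 0.17), Htr5b (−0.015 to 0.17), Rab11fip1 (−0.10 to 0.090), Pla2g7 (−0.13 to 0.043), Arhgef33 (−0.11 to 0.090) and Cryab (−0.073 to 0.082). Of the values for the genes that the rule named (Wfikkn2 is not among them), 617 kept direction and side of the threshold, 86 lost the call, 1 gained one (Ace) and 51 reversed; the causes were not tested. WT replicate 3, with 22 to 242 reads for the 9 genes other than Ttr, limits the precision of the WT means.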

Other observations

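Lists near the 10 genes that the report does not describe gave these values. Of 11 aquaporin genes other than Aqp1, 4 could be tested and 0 passed (edgeR; 0 at an unadjusted p under 0.05), with Aqp4, the water channel of astrocytes, at 654 ± 2.33 CPM in WT and 641 ± 38.0 CPM in KO libraries (SD, n = 3 each). Of 7 tested partners and relatives of Otx2, Meis2, a homeobox gene, rose by 0.44 on the log2 scale (edgeR adjusted p = 0.0104; lost without KO replicate 2), and Eomes, a T-box factor gene of unipolar brush cells, fell by 0.78 (edgeR adjusted p = 0.00360; kept with each library left out). Of 10 Hox genes of the hindbrain 0 passed (edgeR; 0 at an unadjusted p under 0.05), and they summed to 60.6 to 78.6 CPM in WT and 56.9 to 87.9 CPM in KO libraries. Of the pineal genes only Chrna3, a nicotinic receptor subunit gene, could be tested, and it rose by 0.58 (edgeR adjusted p = 0.0280; lost without WT replicate 2 or any 1 KO replicate). Of 10 cerebellar neuron genes, Calb1 of Purkinje cells rose and Gabra6 of granule cells fell, where 6.43% of all tested genes rose and 10.2% fell. The number fallen was 5 without WT replicate 1, 3 without KO replicate 1, 3 by DESeq2, and 0 without WT replicate 3 or KO replicate 3. Each call was lost without KO replicate 3, that of Calb1 also without KO replicate 1 and that of Gabra6 also without WT replicate 3.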
